A study of Homo sapiens with 96 samples.

Results

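Histone genes were followed as polyadenylated transcripts in A375, a human cell line grown from a melanoma with an activating BRAF mutation. Members were the rows of the count table whose symbols follow the nomenclature of the H1, H2A, H2B, H3 and H4 genes, without pseudogenes, the second copy H3-4_1 and the noncoding H2AZ1-DT, which gave 79 of 44659 rows. Of these, 68 belong to the replication-dependent genes, most of which lie in clusters (clustered genes), and 11 are variant genes (H1-7, H1-8, H1-10, H2AX, H2AZ1, H2AZ2, H3-3A, H3-3B, H3-5, H3Y1 and H3Y2). The filter on low counts was passed by 48 members, 41 clustered and 7 variant, and 7 members had no count in any library.

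The libraries were made by QuantSeq, an assay that primes on poly(A) and sequences near the 3′ end of the transcript. The pretreatment of 18 h was DMSO or MAPKi, a mixture of the BRAF inhibitor vemurafenib (500 nM) and the MEK inhibitor cobimetinib (500 nM). They then received vehicle, cycloheximide at 100 µg/ml (CHX, a block of translation elongation), triptolide at 25 µM (T, a block of transcription) or both (TCHX), and were harvested at 0, 1, 3 and 5 h. The 32 groups held 3 libraries each, all 96 from the same line, with total counts from 2381351 to 12520154 (median 7143396). No source used here says whether libraries of a group came from separate cultures, so p-values measure the spread between these libraries, which may be technical.

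Clustered histone genes supply the core and linker histones that package newly made DNA, and they are transcribed mainly in S phase. Their mRNAs are known to end without a poly(A) tail, just after a stem-loop bound by the protein SLBP, and to be degraded when DNA synthesis stops. Variant genes such as H3-3A and H3-3B are expressed throughout the cell cycle from ordinary polyadenylated mRNAs. A poly(A)-primed library therefore counts the minority of clustered transcripts that can be primed, together with the bulk of the variant transcripts.

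The 3′ ends were read from GRCh38 with the GENCODE v44 annotation, to show which members carry the processing signal. The 16-base stem-loop sequence most common among clustered genes, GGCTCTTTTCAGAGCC, stood within 200 bases after the stop codon, on the strand of the gene, in 39 of 68 clustered genes. The looser form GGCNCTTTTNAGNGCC, where N is any base and which includes the first, was found in 25 more and was missing in 4 (H2AC15, H2BC10, H3C6 and H4C13). Of the 11 variant genes, only H2AX held the looser form. Among 19966 other protein-coding genes, 2 (0.01%) held the exact motif and 3 (0.015%) the looser one, and these 3 were the further histone genes H2AC25, H2BC26 and H4C16. The stem-loops of the members that recur in the results are shown with 5 bases on each side, the 16 bases of the motif in capitals.
H1-2: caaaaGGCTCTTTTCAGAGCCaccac
H4C3: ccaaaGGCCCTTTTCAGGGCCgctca
H2BC12: ccaaaGGCTCTTTTAAGAGCCactta
H2BC21: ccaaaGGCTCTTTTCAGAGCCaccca
H2AX: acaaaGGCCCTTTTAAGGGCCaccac

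The motif of H1-2 lies at chr6:26055744-26055759 on the minus strand, 28 bases after the stop codon, that of H4C3 at chr6:26104317-26104332 on the plus strand, and that of H2BC12 at chr6:27146366-27146381 on the minus strand. H2BC21 has its motif at chr1:149886188-149886203 and H2AX at chr11:119094898-119094913, both on the minus strand. All lie in the 3′ untranslated region of the gene. Over the 64 clustered genes with a motif, it began 23 to 68 bases after the stop codon. Taking the farthest end of any transcript, the annotation ended within 50 bases after the loop in 50 of them and ran further in 14.

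H4C3, an H4 gene and the most abundant clustered member, held an A-rich stretch between its stop codon and its stem-loop. It has 18 A in 20 bases at chr6:26104291-26104310 (plus strand), printed here with those 20 bases in capitals and 5 bases on each side.
H4C3 A-rich stretch: acttcAAAAAACAAAAACAAAAAAAcccaa

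No other of the 79 members had more A in any 20 bases of its transcript. The part of this stretch in the counts of H4C3 was not tested.

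Variant genes carried 80.2% and clustered genes 19.8% of the histone counts, which were 0.465% of all counts. Among clustered genes, H4C3 gave 55.2% of the counts and H1-2, a linker histone gene, 24.3%. Among variant genes, H3-3B, one of the pair of genes for histone H3.3, gave 45.3%. Levels are given as CPM, counts relative to the library total, scaled by TMM, a correction for composition, and were not divided by length because a read stands for a transcript end.

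In the DMSO vehicle libraries the variant genes fell in a wide order. Over the 12 libraries of all 4 times, H3-3B ran from 1510 to 1970 CPM (median 1751), H2AZ1, a variant of H2A found at promoters, from 697 to 995 (median 847), and H2AZ2, its close relative, from 460 to 526 (median 487). H3-3A ran from 291 to 384 CPM (median 350) and H1-10, a linker variant, from 223 to 358 (median 270) and overlapped with each other, whereas the more abundant neighbours did not overlap. H2AX, the H2A variant phosphorylated at DNA breaks, was at 55.9 to 97.3 CPM (median 68.2). H3-5, a copy of the H3.3 genes, stayed between 0.360 and 3.28 CPM.

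The first comparison asked how histone transcripts differ after MAPKi, over the 4 vehicle times. The 12 libraries of each side hold 3 replicate numbers at 4 times, and the test took them as independent. Its p-values and SEs can therefore be too small for genes whose level follows the replicate number. The later tests also pool times of the same replicate numbers, so the same limit can hold for them. The clustered genes did not move together. At an adjusted p under 0.05 (edgeR's quasi-likelihood test, two-sided, Benjamini-Hochberg over all 14948 genes), 10 of 41 clustered genes rose, 15 fell and 16 did not pass, while 3 of 7 variant genes rose and 3 fell. Of all genes tested, 69% were called in this comparison, 35.8% up and 33.1% down, so that the called share of the 48 members (64.6%) was near the background. The median log2 change was -0.44 for clustered genes, -0.22 for variant genes and 0.05 for all genes.

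Among clustered genes, the largest fall in CPM was that of H4C3. Its level ran from 424 to 782 CPM in DMSO (median 640) and from 175 to 410 in MAPKi (median 322), and the 12 libraries of each side did not overlap. The log2 change was -1.07 (SE 0.10, adjusted p = 1.09e-16, edgeR). H2AC14, an H2A gene, went from a median of 25.9 CPM (9.93 to 43.3) to 8.13 (3.63 to 12.9), a log2 change of -1.58 (SE 0.24, adjusted p = 2.51e-08, edgeR) with some overlap. H1-3 (median 15.3 against 7.81 CPM, log2 change -0.95) and H1-4 (11.1 against 6.62 CPM, -0.79), both linker genes, and the H2A gene H2AC20 (19.7 against 12.4 CPM, -0.73) also fell, with overlapping ranges.

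Of the 10 clustered genes that rose, 5 were H2B genes. H2BC12 ran from 23.7 to 32.2 CPM in DMSO and from 46.1 to 64.5 in MAPKi, with no overlap, a log2 change of 1.02 (SE 0.07, adjusted p = 9.64e-24, edgeR). H2BC4 went from a median of 7.49 CPM (4.24 to 11.9) to 22.5 (15.8 to 29.7), again with no overlap (log2 change 1.62). H2BC21 was at 0.273 to 3.29 CPM in DMSO (median 1.51) and at 6.27 to 19.8 in MAPKi (median 13.4), which gave a log2 change of 3.11 (SE 0.22, adjusted p = 7.87e-22, edgeR). All 12 MAPKi libraries of H2BC21 thus lay above all 12 DMSO libraries. H2BC5 (median 3.58 against 7.73 CPM, log2 change 1.06), H3-2 (3.26 against 4.88 CPM, 0.63) and H3C4 (0.905 against 3.81 CPM, 1.74) rose with overlapping ranges. H3C6 rose from a median of 0.384 to 3.26 CPM and H2BC15 from 0.418 to 2.15 CPM (log2 changes 3.22 and 2.59). Their ranges also overlapped. They had only 38 and 49 counts over the 12 DMSO libraries, so the size of both changes is uncertain. H2AC8 did not pass (4.37 against 4.37 CPM, adjusted p = 0.987).

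In this comparison, the called members with the fewest reads were not given a fold. H4C6 had 6 counts in the 12 MAPKi libraries against 33 in the 12 DMSO libraries, with no MAPKi library above 2. H4C2 was at 0 in all 6 MAPKi vehicle libraries of 3 and 5 h. H2BC17 had a median of 0.418 CPM in DMSO and 0.067 in MAPKi.

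**Figure D1:**
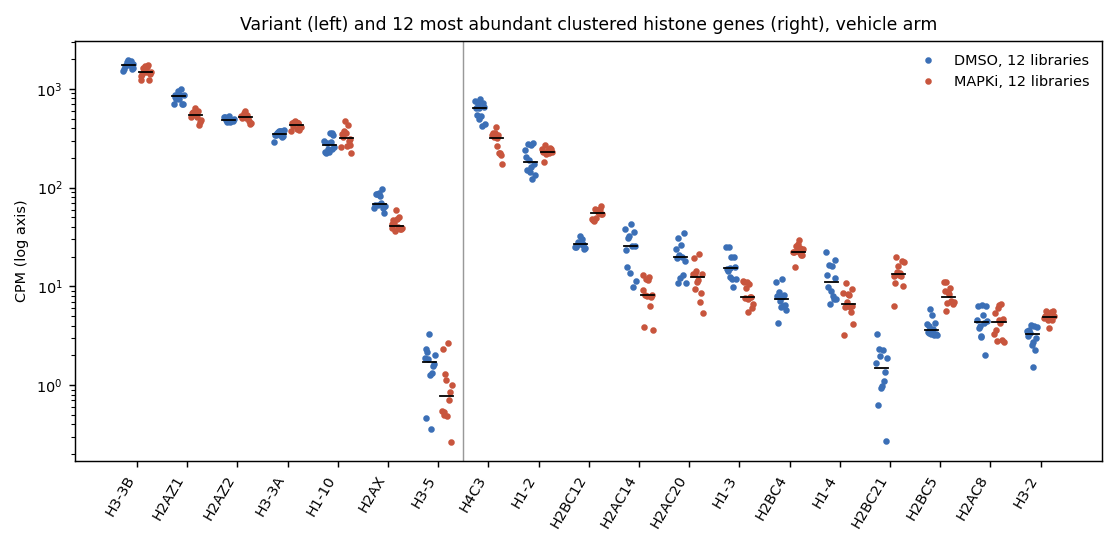
Level (CPM, log axis) of 7 variant and 12 clustered histone genes in the 12 vehicle libraries of each pretreatment, DMSO in blue and MAPKi in red. Points are libraries and bars medians. H4C3 and H2AZ1 are lower, and H2BC12, H2BC4 and H2BC21 higher, in every MAPKi library than in any DMSO library.

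The direction could be set beside the annotated 3′ end, the farthest of any transcript of the gene, a split made with these data known. Of the 8 tested clustered genes with an annotated end more than 150 bases after the stop codon (H2AC6, H2BC4, H2BC5, H2BC15, H2BC21, H3-2, H3C6 and H4C8), 6 rose, 1 fell and 1 did not pass, with a median log2 change of 1.34. Of the 33 with a nearer end, 4 rose, 14 fell and 15 did not pass, with a median of -0.53. The 4 genes with a nearer end that rose were H1-2, H2BC12, H3C4 and H4C11. Of the 8 genes with the farther end, only H2BC21 had it in the transcript marked canonical, 1801 bases after the stop. In the others that transcript ended 46 to 68 bases after the stop. Which transcript the reads came from was not tested. In GENCODE v44, H2BC4 spans chr6:26086317-26123926 on the minus strand, across H1-6, H4C3 and HFE. The study names the NCBI annotation and counted reads on exons, and whether the counted exons overlap was not checked. Whether the counting used the strand is not stated either, so the counts of H2BC4 and H4C3 are uncertain.

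**Figure D2:**
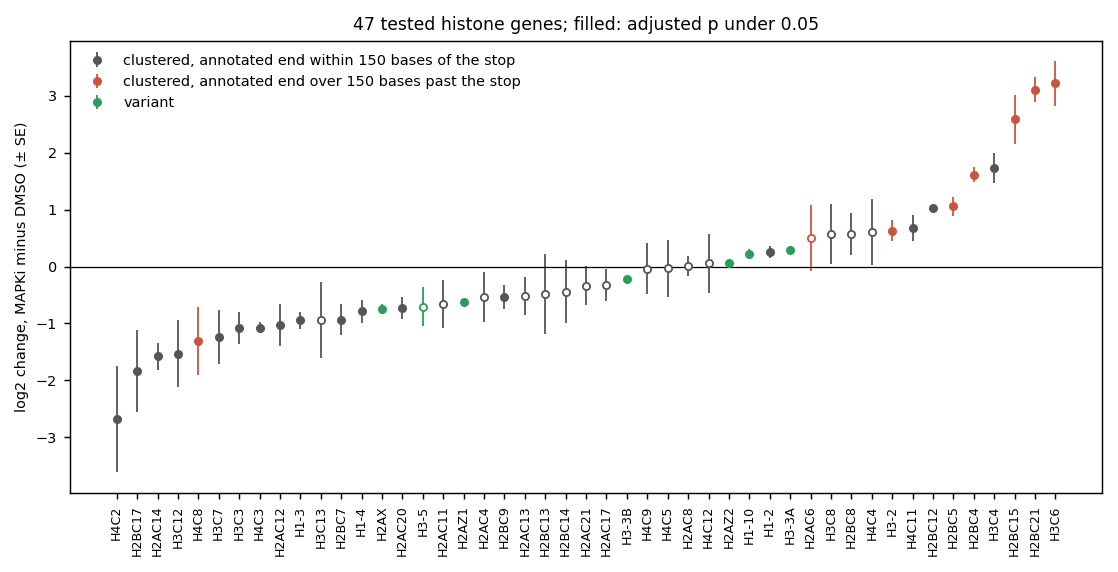
Log2 change of 47 tested histone genes between MAPKi and DMSO in the vehicle arm (12 libraries each, bars are SE), ordered by size; filled points had an adjusted p under 0.05 and H4C6 is left out for its low counts. Clustered genes with the annotated end of any transcript more than 150 bases after the stop are in red. They include the largest rises (H2BC15, H2BC21 and H3C6), of which H2BC15 and H3C6 had few counts in DMSO. Clustered genes with a nearer end are in grey and variant genes in green.

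Of the variant genes, H2AX (median 68.2 against 41.3 CPM, log2 change -0.75) and H2AZ1 (847 against 550 CPM, -0.62) fell, and the H2AZ1 libraries did not overlap. H3-3A rose (median 350 against 434 CPM, log2 change 0.29) while H3-3B, which encodes the same protein, fell (1751 against 1478 CPM, -0.22). H1-10 (log2 change 0.22) and H2AZ2 (0.07) passed with small changes, and both were lost when replicate 2 or 3 was left out. H3-5 did not pass (adjusted p = 0.0643).

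Levels of clustered genes differed between replicate numbers. In DMSO vehicle, the replicate 1 library of H1-2 was highest at every time, at 241, 278, 273 and 280 CPM against 152, 144, 121 and 134 in replicate 3. H4C3 showed the same order in DMSO, with means over the 4 times of 737, 614 and 475 CPM in replicates 1, 2 and 3. The log2 ratio of MAPKi to DMSO within a number was -1.31, -0.89 and -0.87 for H4C3 and -0.08, 0.34 and 0.66 for H1-2, so that the small rise of H1-2 (adjusted p = 0.0187, edgeR) was not seen in replicate 1. For H2BC12 these ratios were 1.03, 1.02 and 1.02. Of the 48 members, 12 were above 0 and 20 below 0 in all 3 numbers. The share of all genes that did so was not computed, so these counts say nothing particular to histone genes.

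Gene groups that act on histones moved mostly downward. Of 21 tested genes of histone mRNA processing and decay, 17 fell and 2 rose (median log2 change -0.52), among them SLBP (59.3 CPM ± 12.3 (SD, n = 12) in DMSO against 23.8 ± 5.87 in MAPKi, log2 change -1.32) and NPAT, the activator of histone gene transcription (16.9 ± 2.09 against 11.1 ± 2.72, -0.61). Of 23 tested chaperone and deposition genes, 17 fell and 2 rose (median -0.47), with CHAF1A of the replication-coupled CAF-1 complex at -1.48 and NASP, a histone H1 and H3 chaperone, at -0.92, whereas ATRX, which places H3.3 at repeats, rose by 0.62. Among 4 tested histone variants outside the symbol rule, MACROH2A1 and CENPA, the centromeric H3, were 2 of the 3 that fell (-0.83 and -0.82), and MACROH2A2 rose (0.76).

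The S phase list, which holds PCNA and MCM2, fell in 26 of 27 tested genes with a median log2 change of -1.30, and its summed level ran from 3964 to 4590 CPM in DMSO and from 1431 to 2327 in MAPKi. Its part in the histone changes was not tested, and in bulk RNA fewer cells of a kind and less RNA per cell cannot be told apart. All 8 targets of the MAPK pathway used to check the labels were lower in MAPKi. Of 9 tested melanocyte lineage markers 7 rose and 2 fell, of 4 dedifferentiation markers 2 rose and 2 fell, and fibroblast markers summed to at most 10.4 CPM in any vehicle library. The summed level of all clustered genes averaged 924 to 1003 CPM over the DMSO vehicle times and 620 to 803 CPM in MAPKi. Without H4C3 the means were 346 to 369 CPM in DMSO (SDs of 78.5 to 119, n = 3 at each time) and 389 to 440 CPM in MAPKi (SDs of 10.6 to 50.5). At each time the gap was smaller than the SD in DMSO, and it was not tested.

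With vehicle alone, no member changed between 0 h and the mean of 3 and 5 h in either pretreatment (edgeR), where 1.47% of all genes were called in DMSO (0.843% up, 0.622% down) and 2.71% in MAPKi (1.31% up, 1.4% down). At an unadjusted p under 0.05 there were 2 and 3 members, and DESeq2's test called none in DMSO or in MAPKi.

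The second comparison asked what happens when translation is blocked. In DMSO-pretreated cells, clustered genes rose with cycloheximide. Over 3 and 5 h, 22 of 41 clustered genes and 3 of 7 variant genes rose against vehicle and none fell (edgeR), where 31.7% of all genes were called, 18.3% up and 13.5% down. The median log2 change was 1.24 for clustered, 0.44 for variant and 0.01 for all genes. All 12 of the most abundant clustered genes were among those that rose.

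H4C3 reached 1009 to 2013 CPM with CHX (median 1238, n = 6) against 424 to 782 with vehicle (median 588), with no overlap, a log2 change of 1.20 (SE 0.14, adjusted p = 1.09e-11, edgeR). H1-2 went from 121 to 280 CPM to 321 to 742 CPM (log2 change 1.24) and H1-3 from 9.93 to 19.9 CPM to 46.2 to 86.3 CPM (2.00), again without overlap. H2BC12 was at 53.4 to 183 CPM against 23.7 to 30.2 CPM (log2 change 1.89, SE 0.10, adjusted p = 4.06e-29, edgeR), H2BC4 at 22.3 to 63.8 against 5.78 to 11.9 CPM (2.23), and H2BC21 at 4.55 to 14.2 against 0.273 to 2.28 CPM (2.44). The largest changes were in H3C4 (3.32, median 21.6 against 1.15 CPM), H3C6 (3.02, median 4.58 against 0.427 CPM) and H2AC6 (2.65). That of H2AC6 rests on 67 counts with CHX against 10 with vehicle, over 6 libraries each, so its size is uncertain. The remaining abundant members rose by 0.86 (H1-4) to 2.00 (H2AC8) on the log2 scale.

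Among variant genes, H1-10 (0.63), H3-3B (0.59) and H2AX (0.44) rose. H2AZ1, H2AZ2 and H3-3A did not pass, with log2 changes of -0.14, -0.08 and -0.02, nor did H3-5.

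The rise built up with time. At 0 h and at 1 h no member was called against vehicle in either pretreatment (edgeR, with 2 and 4 members in DMSO and 1 and 3 in MAPKi at an unadjusted p under 0.05). In DMSO 10 clustered genes were higher at 3 h and 21 at 5 h, with medians of 0.88 and 1.66 over the 41. H2BC12 was 2.17-fold higher at 3 h and 6.31-fold at 5 h. H4C3 stood at 1.91-fold at 3 h and 2.77-fold at 5 h. The summed level of clustered genes was 2895 CPM ± 559 (SD, n = 3) with CHX at 5 h against 953 ± 249 with vehicle, and its share of histone counts 36.1% ± 5.15 against 20.7% ± 5.04.

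**Figure D3:**
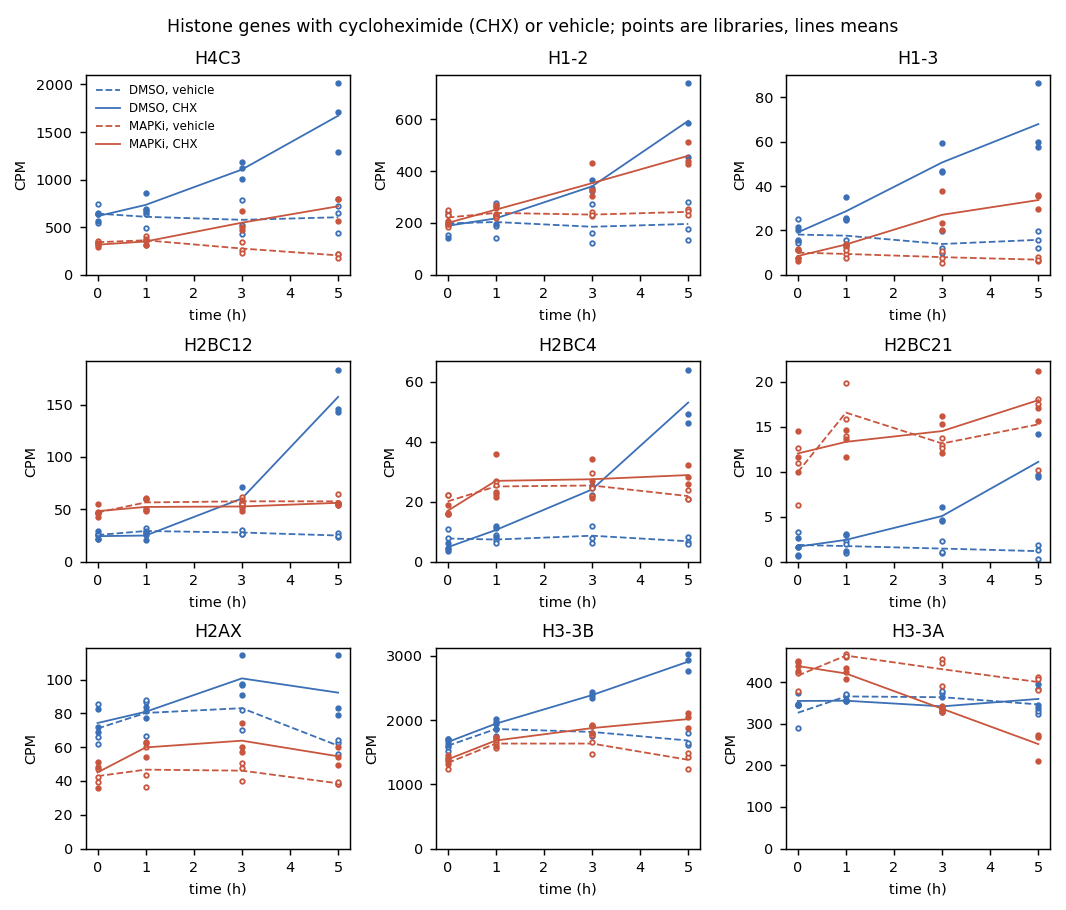
Level (CPM) of 9 histone genes at 0, 1, 3 and 5 h with cycloheximide (solid lines, filled points) or vehicle (dashed lines, open points) in DMSO (blue) and MAPKi (red). Points are libraries and lines join means. H2BC12 and H2BC4 climb steeply in DMSO between 3 and 5 h, whereas H2BC12 with CHX stays at the vehicle level in MAPKi and H3-3A declines there.

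In MAPKi-pretreated cells, 16 of 41 clustered genes rose with cycloheximide and none fell, while 3 variant genes rose and 2 fell (edgeR), where 29.9% of all genes were called. The median log2 change was 0.62 for clustered and 0.37 for variant genes. H4C3 again rose, from 175 to 341 CPM with vehicle to 475 to 798 CPM with CHX, without overlap (log2 change 1.41, SE 0.14, adjusted p = 8.44e-14, edgeR). H1-3 rose by 2.05 on the log2 scale and H1-2 by 0.76. H3C12 passed at 2.30 with 58 counts against 10 and H4C2 had 29 counts over the 6 CHX libraries and 0 over the 6 vehicle libraries. H2BC12 (48.5 to 58.6 CPM against 53.7 to 64.5), H2BC4 (21.3 to 34.4 against 20.9 to 29.7) and H2BC21 (12.1 to 21.2 against 10.2 to 18.0) overlapped with vehicle and did not pass. Of the variant genes, H2AX (0.48), H1-10 (0.46) and H3-3B (0.37) rose. H3-3A fell from 380 to 456 CPM to 211 to 343 CPM without overlap (log2 change -0.52, SE 0.07, adjusted p = 2.16e-09, edgeR). H2AZ2 fell by 0.24, a change that turned to 0.07 when scaled on stable genes. Without replicate 3 the count of called members dropped from 21 to 12.

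The difference between the pretreatments was tested itself, as the CHX effect in MAPKi minus that in DMSO. It was below 0 in 9 clustered and 2 variant genes and above 0 in none (edgeR), where 11.2% of all genes were called, 6.59% below and 4.64% above 0. The median difference was -0.28 for clustered genes and -0.04 for all genes. H2BC12 had a difference of -1.97 (SE 0.13, adjusted p = 5.17e-21), H2BC4 of -1.98 (SE 0.26, adjusted p = 1.08e-08) and H2BC21 of -2.25 (SE 0.41, adjusted p = 3.63e-05). H3C6 (-1.94), H4C11 (-1.69), H3C4 (-1.60) and H2AC8 (-1.27) followed, and the scarce H2BC8 and H2AC4 passed with -2.60 and -2.34. Among variant genes, H3-3A differed by -0.50 (SE 0.10, adjusted p = 7.81e-05) and H3-3B by -0.22 (adjusted p = 0.0327). Without replicate 1 or without replicate 2, 5 of the members were called instead of 11, without replicate 3 it was 7, and H3-3B was lost when any replicate was left out.

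Of the clustered genes with a called difference, H2BC4, H2BC12, H2BC21, H3C4, H3C6 and H4C11 were already called higher in MAPKi with vehicle. H2BC8, H2AC4 and H2AC8 were not called higher there. Their vehicle medians at 3 and 5 h were 1.11, 0.756 and 4.80 CPM in DMSO and 1.90, 0.599 and 4.37 in MAPKi. H1-2, H2BC5, H2BC15 and H3-2 were also called higher with vehicle, but their difference did not pass. Both tests used the vehicle libraries of 3 and 5 h, with opposite sign. A high MAPKi level in those libraries pushes a gene towards both calls, so the overlap of the calls is not independent. H2BC12 with CHX had a median of 107 CPM in DMSO and 56.0 in MAPKi, against vehicle medians of 26.6 and 55.8. H2BC21 with CHX had medians of 7.75 and 15.9 CPM, against vehicle medians of 1.23 and 13.4. The remaining abundant genes did not pass this test, among them H4C3 (0.20, SE 0.19, adjusted p = 0.584), H1-3 (0.05, SE 0.27, adjusted p = 0.959) and H1-2 (-0.48, SE 0.20, adjusted p = 0.11). Among the 8 tested genes with any annotated end over 150 bases after the stop, 3 had a lower effect in MAPKi (median difference -1.96). Of the other 33, 6 did (median -0.21). Of 27 S phase genes, 11 had a higher effect in MAPKi and none a lower one.

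**Figure D4:**
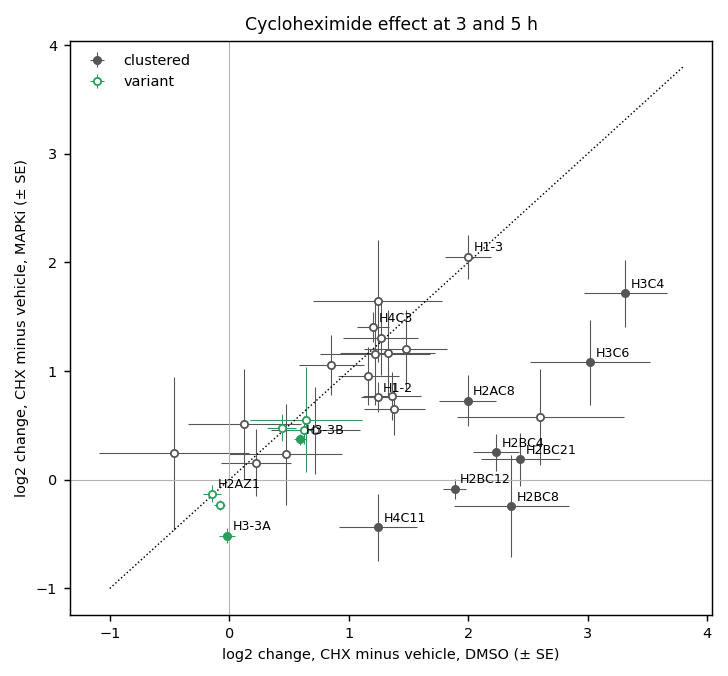
Log2 change with cycloheximide at 3 and 5 h in DMSO (horizontal) and MAPKi (vertical) for the 33 tested members with a mean of at least 1 CPM, bars are SE and the dotted line marks equal change. Filled points differed between pretreatments at an adjusted p under 0.05 (edgeR) and all lie below the line, while H4C3 and H1-3 lie on or above it.

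The third comparison followed loss after the block of transcription, scaled on 36 stable genes, none of them a histone gene. These were picked for a CPM at least 1.1 times the start in the same triptolide libraries. The direction of the calls, also over all genes, therefore depends on that choice. Triptolide lowered 13 clustered and 4 variant genes in DMSO against vehicle at 0 h and raised none (edgeR, mean of 3 and 5 h), where 50% of all genes were called, 48.7% down and 1.3% up. In MAPKi 13 clustered and 3 variant genes fell and none rose, where 57.4% of all genes were called, 56.1% down and 1.28% up. The called share of the 48 members was 35.4% in DMSO and 33.3% in MAPKi, below that of all genes. Of the 12 most abundant clustered genes, 9 fell in DMSO (75%) and 8 in MAPKi (66.7%), above that of all genes. The median log2 change of clustered genes was -0.90 in DMSO and -0.76 in MAPKi, beside -0.47 and -0.59 for all genes.

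H4C3 kept 30.8% ± 1.91 (SD, n = 3) of its starting level at 5 h in DMSO and 33.3% ± 5.91 in MAPKi, with log2 changes over 3 and 5 h of -1.32 (SE 0.17) and -1.20 (SE 0.18). H1-3 kept 17.1% ± 2.72 and 12.2% ± 6.69, and H1-2 35.6% ± 3.72 and 55.8% ± 7.97. The median of all genes above 1 CPM was 66.7% ± 1.46 in DMSO and 60.1% ± 2.29 in MAPKi, so H4C3 and H1-3 lay below it in both. H1-4 had the largest called fall in DMSO (log2 change -2.31, SE 0.35, adjusted p = 4.24e-08, edgeR), followed by H1-3 (-1.85) and H2BC7 (-1.57). In MAPKi, H3C4 (-2.35) and H1-3 (-2.34) had the largest, while H2BC14 passed with 5 counts over 6 libraries. H2BC12 kept 89.5% ± 8.70 and 80.7% ± 2.59 and passed in neither (log2 changes -0.16 and -0.21).

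Variant genes spanned a range of losses. H2AZ1 kept 93.8% ± 1.37 in DMSO and 90.5% ± 7.98 in MAPKi at 5 h and passed in neither. H3-3A kept 100.4% ± 4.02 and 84.2% ± 5.41, and H3-3B 73.0% ± 4.58 and 55.6% ± 0.273. The calls of variant genes depended on the scaling. With TMM, the log2 change of H2AZ2 in DMSO turned from -0.22 to 0.26, that of H3-3A in MAPKi from -0.19 to 0.46, that of H3-3B in DMSO from -0.38 to 0.10, and that of H1-10 in MAPKi to 0.11. Of all members, TMM then called 4 higher and 6 lower in DMSO and 6 higher and 5 lower in MAPKi. Of the named members, H4C3, H1-2, H1-3 and H1-4 in DMSO and H4C3, H1-3, H3C4 and H2BC14 in MAPKi stayed called as falls under each scaling tried.

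H3-3B was the only member called for a difference in loss between pretreatments. The difference was -0.35 on the log2 scale (SE 0.09, adjusted p = 0.00916, edgeR), where 3.17% of all genes were called, 2.76% of all genes in this direction and 0.415% in the other. It was not called in 7 of 13 alternatives, among them TMM scaling and leaving out replicate 1 or replicate 2. No clustered gene passed, and 2 had an unadjusted p under 0.05.

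Cycloheximide given with triptolide held part of some histone transcripts. The called share of the 48 members was 20.8% in DMSO and 35.4% in MAPKi, below that of all genes. Of the 12 most abundant clustered genes, 6 were called in each pretreatment (50%), above that of all genes. Against triptolide alone, 8 clustered and 2 variant genes were higher in DMSO and none lower (edgeR, 3 and 5 h), where 28.9% of all genes were called, 28.4% up and 0.468% down. In MAPKi 12 clustered and 5 variant genes were higher and none lower, where 42% of all genes were called, 41.4% up and 0.535% down, and 8 members were called without replicate 1. The median log2 change of clustered genes was 0.51 in DMSO and 0.52 in MAPKi, beside 0.23 and 0.34 for all genes.

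H4C3 stood at 72.2% ± 17.8 of its start at 5 h in DMSO and at 80.2% ± 8.06 in MAPKi, with log2 changes against triptolide of 0.96 (SE 0.15, adjusted p = 1.35e-07) and 1.05 (SE 0.15, adjusted p = 7.62e-09, edgeR). H1-3 stood at 60.4% ± 15.1 and 70.9% ± 20.9 (log2 changes 1.31 and 1.89). H1-4 (1.23 and 0.96) and H2AC20 (0.76 and 0.98) also passed in both. H2AC4 and H2AC21 passed in DMSO with 2.19 and 1.81, on 62 against 20 and 87 against 66 counts over 6 libraries each. The summed raw counts of H2AC21 showed no change of that size. H2AC4 passed in MAPKi with 2.82, on 41 against 9 counts. H2BC14 and H2BC17 passed in MAPKi with 5 and 2 counts under triptolide and are given no fold. H2BC12 did not pass (0.05 and -0.10), at 97.0% ± 8.59 and 75.5% ± 3.69 of its start.

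Of the variant genes, H3-3B and H1-10 were higher with both inhibitors in both pretreatments. H3-3B stood at 92.6% ± 4.50 of its start in DMSO and 102% ± 11.0 in MAPKi (log2 changes 0.29, SE 0.05, and 0.70, SE 0.05). It was again the only member called for a difference between the pretreatments (0.41, SE 0.07, adjusted p = 1.87e-05, edgeR), where 7.11% of all genes were called, 6.82% in this direction. This difference and that in loss used the same triptolide libraries of 3 and 5 h, with opposite sign, so the 2 calls are not independent. H2AX, H2AZ2 and H3-5 passed in MAPKi alone (log2 changes 0.28, 0.17 and 1.34), the difference from DMSO did not pass for any of them, and with TMM scaling H2AX and H2AZ2 turned to -0.10 and -0.22. Of all members, TMM called 5 higher and 2 lower in DMSO and 7 higher and 4 lower in MAPKi.

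**Figure D5:**
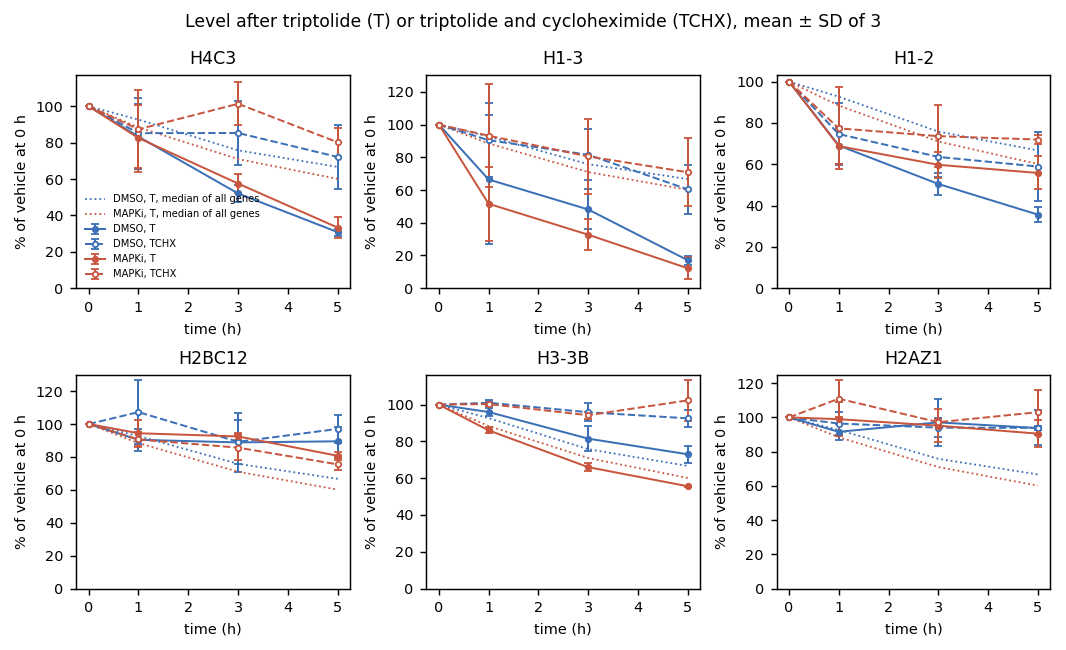
Level of 6 histone genes as a percentage of vehicle at 0 h after triptolide (T, solid) or triptolide with cycloheximide (TCHX, dashed) in DMSO (blue) and MAPKi (red), mean and SD of 3 libraries, with the median of all genes after triptolide dotted. H4C3 and H1-3 end below that median and are higher with both inhibitors, while H2BC12 stays above 75% in each condition at 5 h.

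The translation-dependent decay index of the study is the level with both inhibitors minus that with triptolide, divided by the vehicle level at 0 h. Here the index was computed within each replicate number, as the mean of 3 and 5 h. It is a description without a test, and it uses the same libraries as the tests above. H4C3 had an index of 0.373 ± 0.099 (SD, n = 3) in DMSO and 0.454 ± 0.111 in MAPKi, and H1-3 of 0.384 ± 0.108 and 0.533 ± 0.231. H1-2 (0.182 ± 0.091 and 0.150 ± 0.036) was lower, and H2BC12 lay near 0 (0.040 ± 0.138 and -0.060 ± 0.047). H3-3B was at 0.170 ± 0.012 in DMSO and 0.375 ± 0.055 in MAPKi, without overlap of the 3 replicates, whereas H2AZ1 (-0.015 ± 0.092 and 0.073 ± 0.028) and H3-3A (-0.044 ± 0.040 and 0.042 ± 0.085) stayed near 0. The index depended on the scaling. With TMM, H3-3B was at 0.0406 ± 0.0483 in DMSO and 0.227 ± 0.0525 in MAPKi, again without overlap, while the median over the 19 named members went from 0.182 in DMSO and 0.302 in MAPKi to 0.126 and 0.108.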

How the data were processed

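The authors deposited whole-number read counts per gene for 96 QuantSeq libraries. Per their methods and processing notes, forward reads were trimmed with fastp 0.20.1 (poly(A) included), mapped to GRCh38.p13 with HISAT2 2.2.1 and counted on exons with HTSeq 0.13.5. Strand use in counting is not stated, and near-identical histone copies and overlapping genes make counts uncertain. No molecular identifiers are described, so floors of 3 counts cover counting error only.

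Counts were fitted with edgeR 4.0.16 (R 4.3.3) after filterByExpr (14948 genes), 1 mean per group over 96 libraries, TMM scaling, or, for triptolide contrasts, DESeq2 1.42.0 size factors over 36 stable genes (over 0.2 CPM at the start and at least 1.1 times that CPM after triptolide at 3 and 5 h in every replicate). A gene was called at an adjusted p under 0.05. Of the members, all 79 were matched to GENCODE v44, H3-2 through a RefSeq synonym, H3-7. Library totals ran from 2381351 to 12520154, and 96 pairs of libraries within groups differed beyond sampling noise. Named were the 7 tested variant genes, the 12 most abundant clustered genes, and the 3 largest called changes per direction and contrast, and others as exceptions chosen after their values were seen. Members and lists were chosen with earlier results of these data known. The rule also took 1 gene that is not reported here and enters no count of members. Scripts were tested on simulated data. Alternatives were other scalings, no filter, DESeq2's test, single times, left-out replicates, merged copies and a replicate block.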

Additional observations from a re-analysis of the deposited data

Results flagged for a closer look

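The effect of cycloheximide differed between the pretreatments in 11 members by the test of the difference itself (edgeR), given as MAPKi minus DMSO on the log2 scale. The differences were -2.60 for H2BC8, -2.34 for H2AC4, -2.25 for H2BC21, -1.98 for H2BC4, -1.97 for H2BC12 and -1.94 for H3C6. They were -1.69 for H4C11, -1.60 for H3C4, -1.27 for H2AC8, -0.50 for H3-3A and -0.22 for H3-3B. Among 13 alternatives, H2BC4 and H2BC12 were not called in 1, H2BC21 and H3-3A in 2, H4C11, H3C4 and H2AC8 in 4, H2BC8 in 5, H3C6 in 7, and H2AC4 and H3-3B in 11.

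H3-3B also differed between the pretreatments in its loss after triptolide (-0.35) and in the effect of cycloheximide under triptolide (0.41). The first was not called in 7 and the second in 2 of 13 alternatives. Both used the same triptolide libraries of 3 and 5 h, with opposite sign, so they are not independent. Groups of 3 libraries are too small for a test of single outlying libraries.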

How the results depend on the processing

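Of 1477 alternative values of 117 named calls, 1113 kept their direction and call, 329 kept the direction but were not called and 35 changed sign. Called members for MAPKi against DMSO were 23 to 24 when 1 replicate was left out (31 with all) and 16 at 0 h alone. For cycloheximide in DMSO they were 21 to 22 (25 with all), and 0 at 1 h and 11 at 3 h alone. In MAPKi they were 12 to 17 (21 with all), and 0 at 1 h and 6 at 3 h. The difference of this effect gave 5 to 7 members (11 with all), and 0 at 1 h and 2 at 3 h. Triptolide in DMSO gave 14 to 15 (17 with all), 8 with DESeq2 size factors, 9 with total counts, 10 with TMM, 0 at 1 h and 8 at 3 h. In MAPKi it gave 11 to 16 (16 with all) and 0 at 1 h. The difference in loss gave 0 to 1 member, and 0 with DESeq2 size factors, with TMM, at 1 h and at 3 h. Both inhibitors against triptolide gave 7 to 9 in DMSO (10 with all), and 0 at 1 h and 2 at 3 h. In MAPKi they gave 8 to 14 (17 with all), 11 with DESeq2 size factors or TMM, 10 with total counts, 0 at 1 h, 5 at 3 h and 8 at 5 h. The difference of that effect gave 1 member in each fit without 1 replicate, and 0 at 1 h and at 3 h. Vehicle over time in MAPKi gave 0 members in the reported fit, and 1 without the filter on low counts, at 3 h and at 5 h. The cause of these changes was not tested.

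Same-numbered libraries did not deviate together in every pair (correlations of -0.14 to 0.28 for MAPKi against DMSO, above 0.1 in 19 of 48 pairs). The reported tests therefore did not pair the samples by replicate number. Percentages of the start and decay indices were still formed within a number, so their SDs rest on that pairing. With a replicate block, vehicle over time in MAPKi gave 2 members, and all 117 named calls kept their direction and call.

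The median decay index of the 19 named members was 0.182 in DMSO and 0.302 in MAPKi. With TMM it was 0.126 and 0.108, so that the order turned, and with total counts 0.149 and 0.208. Of 160 alternative index values, 52 moved by more than the spread between replicates.

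At 1 h alone these log2 values changed sign. For cycloheximide in DMSO they were -2.16 for H2AC6, -0.24 for H2BC12 and -0.16 for H2BC5. In MAPKi they were -0.34 for H1-10, -0.16 for H1-4, -0.05 for H2AC8 (-0.046), -0.06 for H3C12 (-0.056) and -0.05 for H4C3 (-0.049). The difference became 0.93 for H2AC4 and 0.12 for H2BC12. After triptolide in DMSO H1-10 was at 0.04 (0.041). For both inhibitors against triptolide in DMSO, values were -0.24 for H1-10, -0.07 (-0.073) for H1-4, -0.09 (-0.091) for H2AC21 and -0.45 for H2AC4. In MAPKi they were -0.01 (-0.012) for H1-10, -0.0057 for H2AC4, -1.78 for H2BC14 and -0.28 for H2BC17. The last 2 genes had 5 and 2 counts under triptolide at 3 and 5 h, so their fitted values depend on the prior count and are no folds.

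Other scalings turned further values. H2AZ2 with cycloheximide in MAPKi was at 0.069 with stable genes. After triptolide, DESeq2 size factors gave 0.29 for H2AZ2 and 0.13 for H3-3B in DMSO, and 0.076 for H1-10 and 0.42 for H3-3A in MAPKi. TMM gave 0.26, 0.10, 0.11 and 0.46 for the same genes in this order, and total counts 0.10 (0.099) for H2AZ2 and 0.17 for H3-3A. For both inhibitors against triptolide in MAPKi, DESeq2 size factors gave -0.09 (-0.095) for H2AX and -0.21 for H2AZ2, TMM -0.10 and -0.22, and total counts -0.06 (-0.060) for H2AZ2.

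Members with few counts, among them H4C2, H4C6, H2BC14 and H2BC17, were limited by depth, and a call missed in them does not show that they did not differ.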
